A study of Mus musculus with 46 samples.

Results

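The 9 genes described here, Txnip, Arrdc3, Arrdc4, Bmf, Sik1, Sesn1, Sesn3, Pik3ip1 and Klhl24, were chosen by name, out of 25624 gene symbols listed in 4 mouse RNA-seq tables, as FOXO and arrestin-domain genes that fall after stimulation of TLR4. The choice used measured values, so the changes from resting to stimulated control cells are given below as a description without a test. The description held for part of the set. Within 1 hr 7 of the genes were at 52.4% of their resting level or less in each of the 3 experiments sampled then, and Sesn3 was at 63.3% to 75.0%. In levels as deposited, not corrected for a shift of all genes, Pik3ip1 was partly back at 4 hr. The mean level of Arrdc4 was above rest at the last time point of every experiment. What the choice did not use is how these genes differed when SWI/SNF complexes were perturbed in stimulated cells.

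FOXO transcription factors activate genes of cell cycle arrest, stress resistance and cell death, and AKT keeps them out of the nucleus by phosphorylation when PI3K is active, as it is downstream of many receptors of macrophages. Txnip, Arrdc3 and Arrdc4 are alpha-arrestins, adaptor proteins that bring membrane proteins to ubiquitin ligases of the NEDD4 family, and Txnip and Arrdc4 are also targets of the glucose-sensing factors MondoA and ChREBP. SWI/SNF complexes move nucleosomes with the ATPase SMARCA4 or SMARCA2. ARID1A belongs to the BAF form of the complex and PBRM1 to the PBAF form.

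The samples were mouse bone marrow-derived macrophages, grouped in 4 experiments with 2 libraries in each of 23 labelled groups. Experiment 1 sampled controls, labelled WT, before (0 hr) and 1 and 4 hr after lipid A, a TLR4 ligand, was added, and cells given ACBI1, BRM014 or BRDK98 4 hr after it. ACBI1 is a degrader of SMARCA2, SMARCA4 and PBRM1, BRM014 inhibits the ATPases SMARCA2 and SMARCA4, and for BRDK98 the sources used here give a code name alone. Experiment 4 sampled WT controls before and 20 and 60 min after lipid A, with the same 3 compounds at both stimulated times. Experiment 2 compared Arid1a-/- with Arid1a f/f cells at 1 and 4 hr of LPS, with Arid1a f/f cells alone at 0 hr. Experiment 3 compared Pbrm1-/- with Pbrm1 f/f cells at 4 hr of lipid A, with Pbrm1 f/f cells alone at 0 hr. Compound dose, the length of pretreatment and the means by which the floxed alleles were deleted are not given in the sources used here, and perturbed cells without a stimulus were not analysed here, so a difference at a stimulated time may have been present at rest. The labels do not say whether the 2 libraries of a group came from separate animals or cultures, so p-values measure only the spread between these libraries. In these bulk samples, fewer cells of a type and less RNA per cell cannot be told apart.

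To show the sequence around the start of the genes with a searched motif, stretches of the RefSeq promoter windows of GRCm38.p6 (250 bases before to 50 after a start, 12 windows for 7 of the 9 genes) are printed 5′ to 3′ on the gene's strand, with the matched motif in capitals. Both strands were searched for TGTTTAC (the core FOXO site), CACGTG (an E-box), the carbohydrate response element consensus, TGACGTCA (the cAMP response element) and the NF-kB site consensus. CACGTG can lie inside a carbohydrate response element. Txnip, on chromosome 3, held TGTTTAC on the opposite strand with its first base at -121 from the start, in the stretch chr3:96557707-96557956 (+):
Txnip: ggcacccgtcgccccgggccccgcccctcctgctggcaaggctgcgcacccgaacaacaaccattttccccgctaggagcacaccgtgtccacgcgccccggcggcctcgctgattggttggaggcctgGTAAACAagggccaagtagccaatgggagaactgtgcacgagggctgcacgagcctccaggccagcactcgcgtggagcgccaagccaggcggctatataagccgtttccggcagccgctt
Arrdc4, on chromosome 7, held CACGTG at -193, in chr7:68749239-68749488 (-):
Arrdc4: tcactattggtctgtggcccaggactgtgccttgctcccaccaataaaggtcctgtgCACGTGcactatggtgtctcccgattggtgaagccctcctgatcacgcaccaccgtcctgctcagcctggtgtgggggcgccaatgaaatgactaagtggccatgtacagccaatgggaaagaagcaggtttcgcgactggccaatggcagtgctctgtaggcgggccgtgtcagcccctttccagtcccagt
Sesn1 held TGTTTAC in 1 of its 2 windows, just inside an upstream start, in chr10:41810584-41810613 (+):
Sesn1: agaaccttctacTGTTTACcagccttttgg
Bmf held the NF-kB consensus in 1 of its 3 windows, also at a start other than that of the counted transcript, in chr2:118544570-118544599 (-):
Bmf: agattgtacctcGGAGTCTCCCcagagcca
Of 32851 windows of this length, TGTTTAC was in 3.65%, CACGTG in 7.15%, the NF-kB consensus in 8.46%, TGACGTCA in 1.79% and the carbohydrate response element consensus in 0.119%. None of the 12 windows held the last 2 motifs, which says only that those letters are not in these windows.

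The values are TPM, transcript abundances scaled for length and library size. Over the listed genes they summed to between 526364 and 658440 TPM per library, so the totals differ. They come from 7015041 to 27527024 exonic reads per library. At that depth 3 reads on a transcript of 2000 bases come to between 0.0654 and 0.298 TPM, a limit that covers counting error only. The 4 hr control column of experiment 1 is present with identical values under both replicate names in all 24537 genes, so that group counts as 1 library, and it is the control of every 4 hr compound comparison. Macrophage markers were present in all experiments (8 of 8 at 1 TPM or more, summed level 13348 to 46867 TPM), and lymphocyte markers were near 0 (summed level at most 0.386 TPM, 0 of 6 at 1 TPM), as were erythroid and mast cell markers (at most 2.14 TPM). Of 6 dendritic cell markers 2 reached 1 TPM in each experiment, with summed levels of up to 70.5 TPM (experiment 2). Granulocyte markers summed to 63.9 to 113.6 TPM in experiment 3 and 58.2 to 95.1 in experiment 4. In experiments 1 and 2 they reached at most 13.4 and 5.27 TPM. Stromal markers summed to 153 TPM in 1 control library at 1 hr of experiment 1 and to 2.57 in the other. In experiments 2, 3 and 4 they reached at most 62.1, 34.6 and 8.79 TPM. Levels were not compared between experiments because the counted transcript of Txnip, Arrdc3, Arrdc4 and Sik1 differs between tables.

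In control cells the alpha-arrestin Txnip, which binds thioredoxin and limits glucose uptake, had the highest resting level of the 9 genes in every experiment. In experiment 4 it was at 760.5 and 692 TPM at rest, 585 and 574 at 20 min and 34.8 and 32.8 at 60 min. The 60 min level was 4.65% of the resting mean, and only 1 of the 11549 genes tested had a lower log2 difference at that time. At 1 hr it ranked lowest of all genes in both other time courses, at 2.14% of rest in experiment 1 and 4.64% in experiment 2. It was higher again at 4 hr: 11.7% of rest in experiment 1, 8.37% in experiment 2 and 19.1% in experiment 3. The gene shares 606 exonic bases with the antisense gene Gm15441, and reads on both strands were counted, so the 2 transcripts cannot be told apart.

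Arrdc3, which directs receptors and transporters to NEDD4-family ligases, kept going down between 1 and 4 hr where Txnip turned. It was at 72.0 and 67.0 TPM at rest, 58.4 and 60.2 at 20 min and 6.30 and 7.57 at 60 min in experiment 4. In experiment 2 it went from 65.4 and 81.6 TPM at rest to 6.10 and 5.96 at 1 hr and 0.582 and 0.728 at 4 hr, which is 0.891% of rest. Its paralog Arrdc4 took another course: 15.5 and 15.1 TPM at rest, 16.5 and 20.8 at 20 min and 20.8 and 21.4 at 60 min in experiment 4. Arrdc4 was at 245% of its resting mean at 4 hr in experiment 3, 121% in experiment 1 and 110.4% in experiment 2. Its only group mean below rest in control cells was at 1 hr in experiment 2 (65.5%), and the 4 hr libraries of that experiment, at 11.1 and 16.3 TPM, lay on either side of the resting 12.7 and 12.2.

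**Figure D1:**
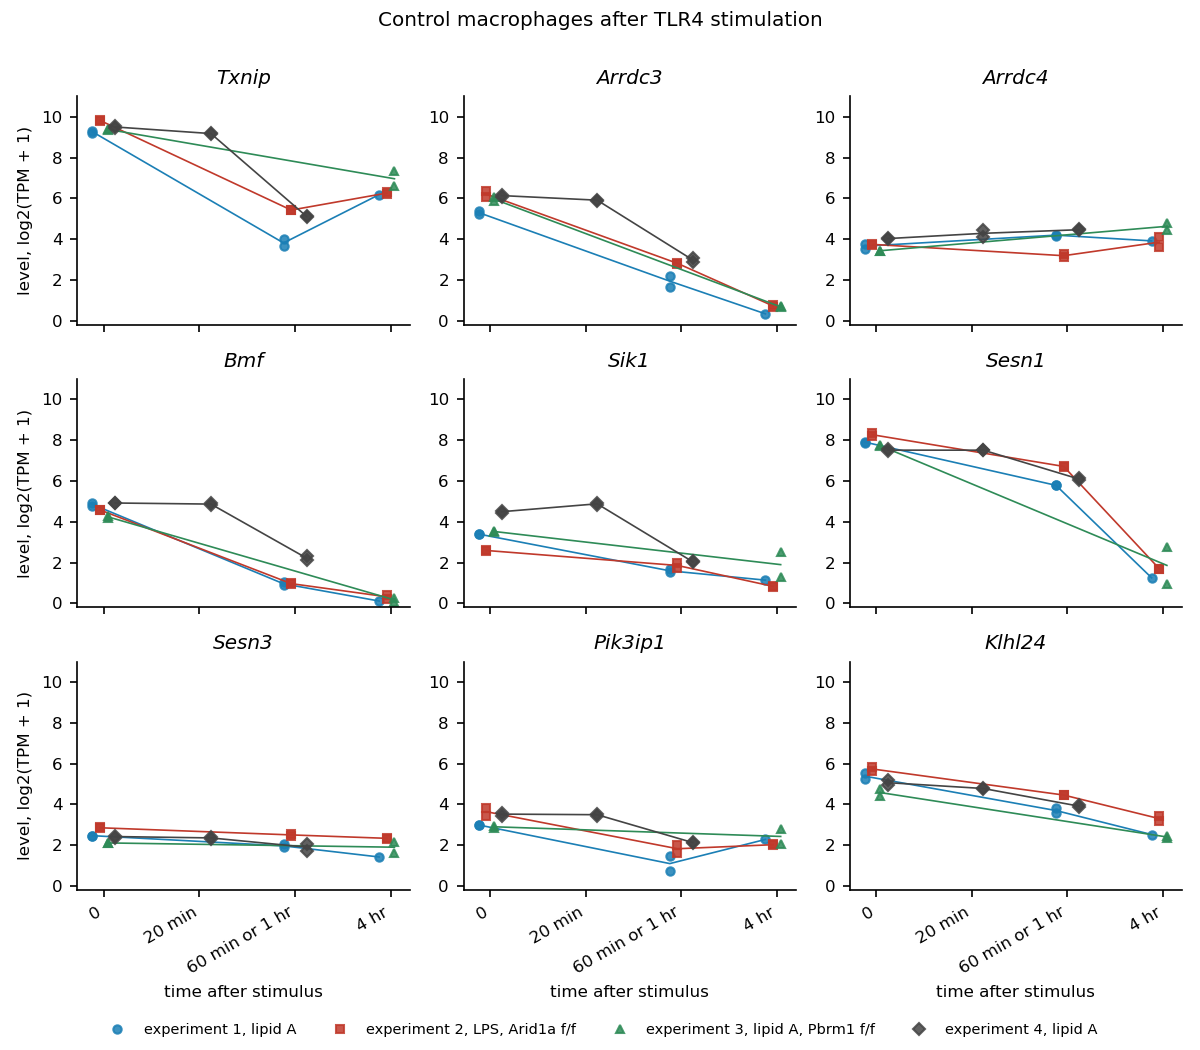
Levels of the 9 genes in control cells as log2(TPM + 1) against time after the stimulus in evenly spaced steps (not to scale), 1 panel per gene, with 1 point per library, 1 colour per experiment and lines through the group means. Txnip, Arrdc3, Bmf, Sik1, Sesn1 and Klhl24 lie below their resting level at 1 and 4 hr in each experiment, while the mean of Arrdc4 lies at or above it except at 1 hr in experiment 2.

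Bmf, a BH3-only member of the BCL2 family that promotes apoptosis, was at 29.8 and 28.8 TPM at rest and at 3.93 and 3.40 at 60 min in experiment 4 (12.5% of rest). At 4 hr it was near the limit of detection, with 0.177 and 0.322 TPM in experiment 2 and 2 reads in the control library of experiment 1. Sik1, a salt-inducible kinase that phosphorylates CRTC coactivators and class IIa histone deacetylases, was the one member besides Arrdc4 above rest at 20 min. It went from 20.8 and 22.3 TPM to 27.2 and 29.8 at 20 min (132% of rest) and to 3.19 and 3.02 at 60 min (14.4%).

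The sestrins are stress-induced proteins that restrain the growth kinase complex mTORC1. Sesn1 was slower to go down than Txnip and ended lower relative to rest: in experiment 1 it was at 242 and 236 TPM at rest, 54.2 and 54.3 at 1 hr and 1.38 at 4 hr. That last value is 0.577% of rest and the lowest log2 difference of the 11531 genes tested in that experiment at 4 hr. In experiments 2 and 3 Sesn1 ranked 2 from the lowest at 4 hr. Sesn3 moved little by comparison, from 6.14 and 6.29 TPM at rest to 4.12 and 3.96 at 4 hr in experiment 2, with 37.0% to 84.3% of rest left at 4 hr over the 3 experiments. In the authors' deposited results its log2 fold changes at 4 hr were -0.40, 0.13 and 0.61 in experiments 1, 2 and 3.

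Pik3ip1, a transmembrane protein that inhibits PI3K, was low at 1 hr and partly back at 4 hr in experiment 1: 7.02 and 6.87 TPM at rest, 0.675 and 1.72 at 1 hr and 3.85 at 4 hr. In experiment 2 the 4 hr mean was 26.4% of rest and in experiment 3 it was 70.5%. These are shares of TPM as deposited, at a time when the median of all genes was also below rest. In the authors' deposited results Pik3ip1 had log2 fold changes of 0.18, -1.17 and 0.34 at 4 hr in experiments 1, 2 and 3. It shares 91 exonic bases with the gene Gm12592 on the opposite strand. Klhl24, an adaptor that brings substrates to CUL3 ubiquitin ligases, was at 49.4 and 55.3 TPM at rest, 20.8 and 21.1 at 1 hr and 9.70 and 8.06 at 4 hr in experiment 2. Over the 3 experiments sampled at 4 hr it held 11.6% to 18.6% of its resting mean.

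The median log2 difference of the 9 genes from rest was -1.90 at 1 hr in experiment 1 (all genes tested -0.38) and -1.42 at 60 min in experiment 4 (all genes -0.33). At 20 min it was -0.05, against -0.03 over all genes. At 4 hr it was -2.86, -2.44 and -2.18 in experiments 1, 2 and 3, against -0.84, -0.63 and -0.75 over all genes. Of all genes tested, 19.2% passed the threshold as lower at 1 hr in experiment 1, 20.2% at 1 hr in experiment 2, 0.346% at 20 min and 18.1% at 60 min, and at 4 hr 37.4%, 35.5% and 30.6% in experiments 1, 2 and 3. Nothing is read from these shares for the 9 genes, since they were chosen for their fall.

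In the comparisons that follow, a gene is said to rise or fall when limma's adjusted p was under 0.05 both on TPM as deposited and after median-ratio scaling. Differences are in log2(TPM + 1) with their standard error, which shrinks the changes of genes under about 2 TPM. Each control group serves all compounds of its time and is also the stimulated group of the control time course, so the compound effects are not independent of each other or of the values that chose the genes.

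At 20 min of lipid A, before Txnip, Arrdc3 and Bmf were far below rest in control cells, their mean levels were lower with all 3 compounds. Of these differences limma called only Bmf with ACBI1 and Arrdc3 with BRDK98. For Bmf the control libraries held 29.0 and 27.4 TPM, those with ACBI1 19.9 and 18.1, with BRM014 21.4 and 21.7 and with BRDK98 22.1 and 21.4. All 6 treated libraries lay below both controls. Bmf fell with ACBI1 by 0.54 on the log2 scale (SE 0.09, limma adjusted p = 0.0225), the one call among the 9 genes where 0.147% of all genes were called; without any 1 of the 4 libraries the adjusted p lay between 0.131 and 0.367.

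Sik1 and Arrdc3 fell with BRDK98 at 20 min, 2 of 9 genes where 1.33% of all genes were called. Sik1 was at 27.2 and 29.8 TPM in the controls, 30.49 and 30.04 with ACBI1, 23.9 and 24.8 with BRM014 and 13.2 and 14.3 with BRDK98. Both BRDK98 libraries were below every other library of that time, and the difference from control was -0.999 (SE 0.13, adjusted p = 0.000594). Arrdc3 was at 58.4 and 60.2 TPM in the controls and at 29.1 and 37.3 with BRDK98, a difference of -0.83 (SE 0.16, adjusted p = 0.0145). That call was lost without either control library or without BRDK98 replicate 1 (adjusted p = 0.108, 0.138 and 0.233). With BRM014 0 of the 9 genes passed limma's test (0.39% of all genes called). Of them 3, Txnip, Arrdc4 and Bmf, had an unadjusted p under 0.05, and limma voom on the recovered reads called 0. The authors' deposited DESeq2 results gave Arrdc4 (-0.44, adjusted p = 0.00154) and Bmf (-0.35, adjusted p = 0.000706) as lower with BRM014. Arrdc3 did not pass there (adjusted p = 0.184). With ACBI1 the same results gave Arrdc3 (-0.52, adjusted p = 2.14e-10), Bmf (-0.55, adjusted p = 2.67e-08) and Arrdc4 (-0.36, adjusted p = 0.0233) as lower. For Arrdc3, Arrdc4 and Bmf the deposited results list another transcript than the TPM used here, so the 2 sets of values are not of the same measure.

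Txnip at 20 min was at 585 and 574 TPM in the controls, 425 and 412 with ACBI1, 449 and 461 with BRM014 and 443 and 488 with BRDK98. All treated libraries were lower than both controls, by differences that did not pass limma's threshold (adjusted p = 0.404 with ACBI1). In the authors' deposited table Txnip was lower with ACBI1 (-0.45, adjusted p = 2.04e-12), with BRM014 (-0.31, 9.1e-06) and with BRDK98 (-0.30, 0.000288). The medians of the 9 genes at 20 min were -0.28, -0.24 and -0.27 with ACBI1, BRM014 and BRDK98, against -0.02, -0.03 and -0.01 over all genes.

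By 60 min the order for Txnip was turned round: the controls, at 34.8 and 32.8 TPM, lay below all 6 treated libraries. The values were 42.9 and 47.0 TPM with ACBI1, 47.6 and 70.8 with BRM014 and 60.3 and 63.9 with BRDK98. Txnip rose with BRM014 (0.76, SE 0.13, adjusted p = 0.000559) and with BRDK98 (0.86, SE 0.13, adjusted p = 0.000386). With ACBI1 it rose by 0.40 (SE 0.13, adjusted p = 0.0266), a call lost without any 1 of the 4 libraries (adjusted p 0.0519 to 0.155). Tested directly, the difference from control at 60 min exceeded that at 20 min for each compound, by 0.87 with ACBI1 (adjusted p = 0.00385), 1.11 with BRM014 (adjusted p = 0.000866) and 1.18 with BRDK98 (adjusted p = 0.000833). Even the highest treated value stayed far below the resting level of 760.5 and 692 TPM.

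**Figure D2:**
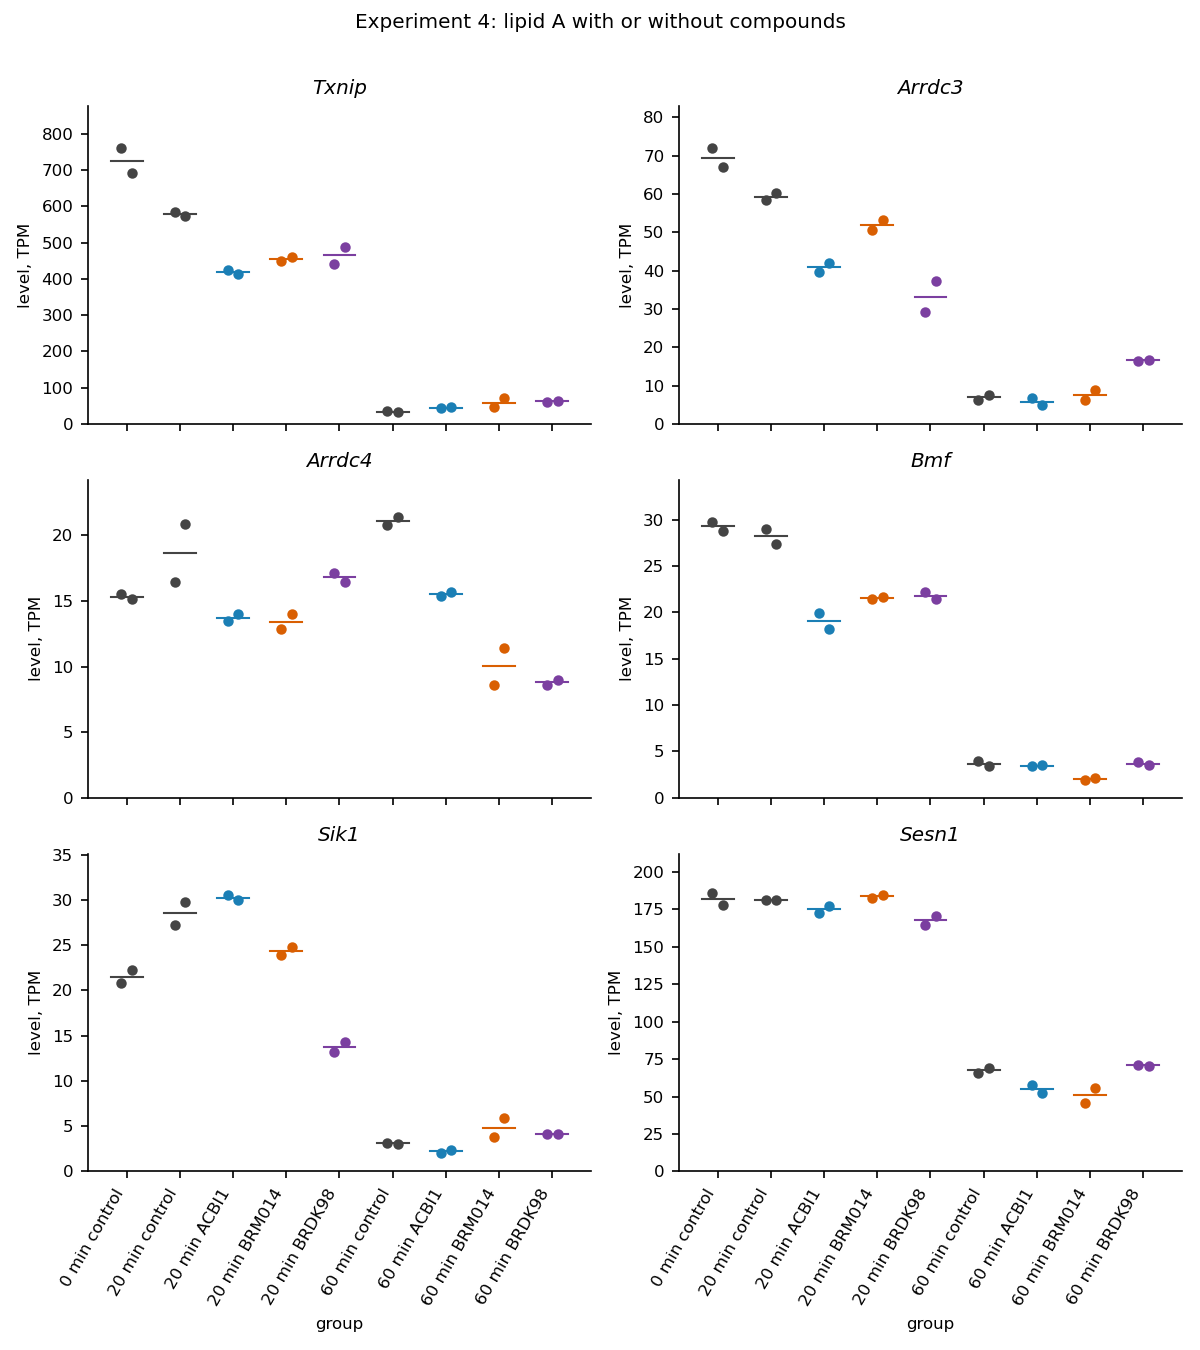
TPM per library of Txnip, Arrdc3, Arrdc4, Bmf, Sik1 and Sesn1 in experiment 4, at 0, 20 and 60 min of lipid A, in control cells and with each compound; points are libraries and short lines are group means on axes that start at 0. Sik1 at 20 min and Arrdc3 at 60 min stand apart with BRDK98, and Arrdc4 at 60 min is lowest with BRM014 and BRDK98.

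Arrdc3 changed sides with BRDK98 more than any other member. At 60 min it was at 6.30 and 7.57 TPM in the controls, 6.76 and 4.85 with ACBI1, 6.34 and 8.96 with BRM014 and 16.4 and 16.8 with BRDK98. The BRDK98 libraries were above all others, and Arrdc3 rose by 1.15 over control (SE 0.16, adjusted p = 0.000138). The effect at 60 min exceeded that at 20 min by 1.98 (adjusted p = 4.03e-05), where 6.66% of all genes were called for such a change with BRDK98.

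Arrdc4, which was not below rest in these control cells, fell with 2 of the compounds at 60 min. Its values were 20.8 and 21.4 TPM in the controls, 15.4 and 15.7 with ACBI1, 8.62 and 11.4 with BRM014 and 8.61 and 8.99 with BRDK98. All treated libraries lay below the controls. The difference was -1.02 with BRM014 (SE 0.12, adjusted p = 1.59e-05) and -1.17 with BRDK98 (SE 0.12, adjusted p = 6.63e-06). With ACBI1 it was -0.42, past the threshold on TPM as deposited (adjusted p = 0.0119) but not after scaling (adjusted p = 0.0831).

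Of the remaining members at 60 min, Bmf, Sesn1 and Sik1 were called with BRM014. Bmf fell from 3.93 and 3.40 TPM to 1.89 and 2.18 (-0.62, SE 0.09, adjusted p = 9.85e-05). Sesn1 fell from 66.0 and 69.0 TPM to 45.7 and 55.9 (-0.41, SE 0.08, adjusted p = 0.00179), and the BRDK98 libraries, at 70.9 and 70.7, lay above the controls. Sik1 rose from 3.19 and 3.02 TPM to 3.83 and 5.88 (0.49, SE 0.13, adjusted p = 0.00987), which was lost without control replicate 2 (adjusted p = 0.0588). The BRM014 libraries of that time differed from each other more than those of other groups did, with a within-group SD of 0.309 on the log2 scale against 0.126 to 0.143. Klhl24 showed it, at 6.86 and 14.3 TPM with BRM014 against 13.7 and 14.4 in the controls. Without BRM014 replicate 2 Klhl24 would be called lower (-0.94, adjusted p = 3.11e-06), and without replicate 1 Sesn3, at 2.11 and 5.01 TPM against 2.31 and 3.21, would be called higher (0.69, adjusted p = 0.00403).

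The counts at 60 min were 5 of 9 genes called with BRM014, where 30.2% of all genes were called, 3 with BRDK98 (11.6%) and 1 with ACBI1 (25.2%). Sesn3, Pik3ip1 and Klhl24 were called with none of the compounds at that time. Pik3ip1 lay between 3.05 and 3.72 TPM in all 8 libraries at 60 min, and its difference with BRDK98 had a 95% interval of -0.21 to 0.20. The medians of the 9 genes were -0.23, 0.07 and 0.16 with ACBI1, BRM014 and BRDK98, against -0.14, 0.04 and 0.08 over all genes. With ACBI1 at 60 min stromal markers summed to 8.68 to 8.79 TPM against 2.09 to 3.22 in the controls, granulocyte markers to 58.2 to 61.4 against 80.8 to 88.5 and macrophage markers to 26864 to 27285 against 32609 to 33224; with BRDK98 macrophage markers were at 36206 to 38651. Their part in these results was not tested.

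**Figure D3:**
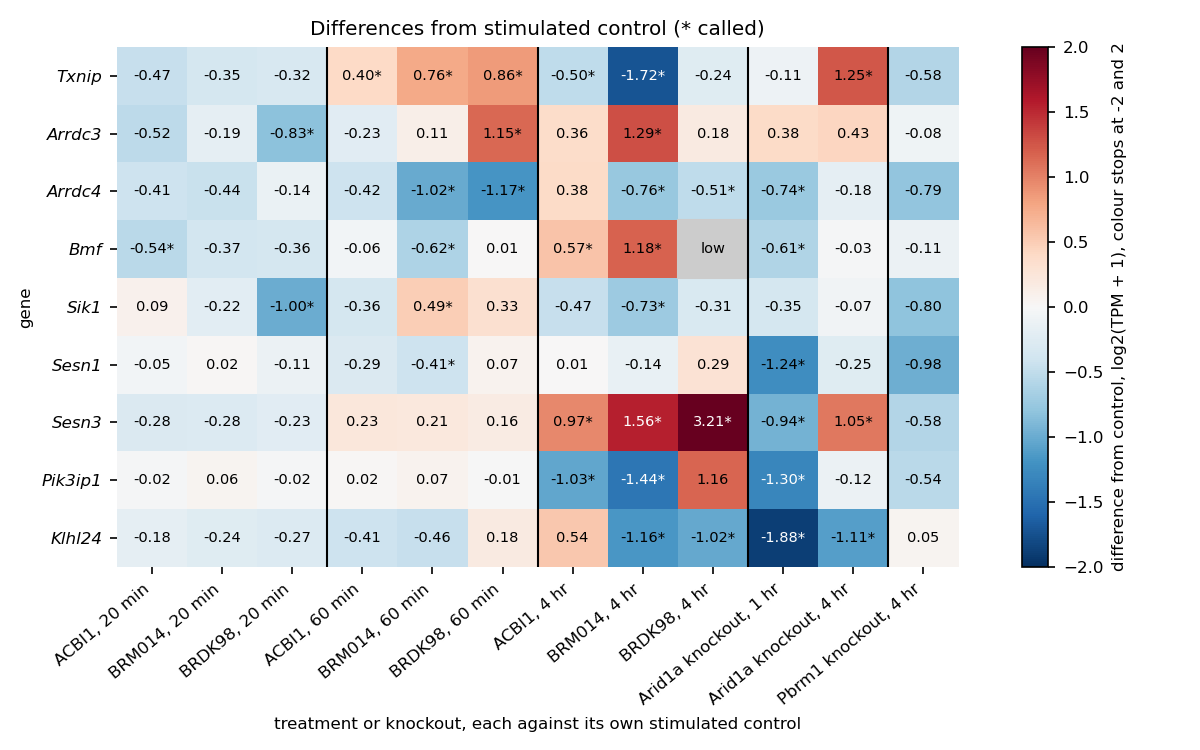
Difference from the matched control in log2(TPM + 1) for each of the 9 genes (vertical) in the 12 compound and knockout comparisons (horizontal), with the value in each cell (except Bmf with BRDK98 at 4 hr, grey and marked low, where every library had under 3 reads), colours that stop at -2 and 2, and an asterisk where limma's adjusted p was under 0.05 on both scalings. Sesn3 with BRDK98 at 4 hr has the highest value (3.21) and Klhl24 in Arid1a-/- cells at 1 hr the lowest (-1.88).

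At 4 hr of lipid A the 3 compounds left different profiles of the 9 genes, each against the same single control library. Sesn3 rose with all of them. The control held 1.67 TPM, ACBI1 4.22 and 4.23, BRM014 7.31 and 6.47 and BRDK98 24.4 and 23.2, while resting cells held 4.53 and 4.50. The differences were 0.97 with ACBI1 (SE 0.14, adjusted p = 0.000389), 1.56 with BRM014 (SE 0.14, adjusted p = 8.62e-06) and 3.21 with BRDK98 (SE 0.14, adjusted p = 1.41e-07). With ACBI1 the adjusted p was 0.0651 in limma voom on the recovered reads and 0.0581 in the authors' deposited table.

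Pik3ip1 moved in opposite directions. It was at 3.85 TPM in the control, 1.55 and 1.20 with ACBI1, 0.83 and 0.745 with BRM014 and 10.6 and 9.12 with BRDK98. It fell with ACBI1 (-1.03, SE 0.25, adjusted p = 0.00727) and with BRM014 (-1.44, SE 0.25, adjusted p = 0.000644). With BRDK98 it was 1.16 higher on TPM as deposited (adjusted p = 0.00264) and 0.62 higher after scaling (adjusted p = 0.0738), and the authors' deposited table gave 0.78 (adjusted p = 0.0239).

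Klhl24 fell with BRM014 and BRDK98. The control held 4.73 TPM, ACBI1 7.31 and 7.36, BRM014 1.62 and 1.50 and BRDK98 1.97 and 1.68. The differences were -1.16 with BRM014 (SE 0.17, adjusted p = 0.000184) and -1.02 with BRDK98 (SE 0.17, adjusted p = 0.000485). The ACBI1 libraries lay above the control by 0.54, a difference with an adjusted p of 0.0238 on TPM as deposited and 0.236 after scaling.

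**Figure D4:**
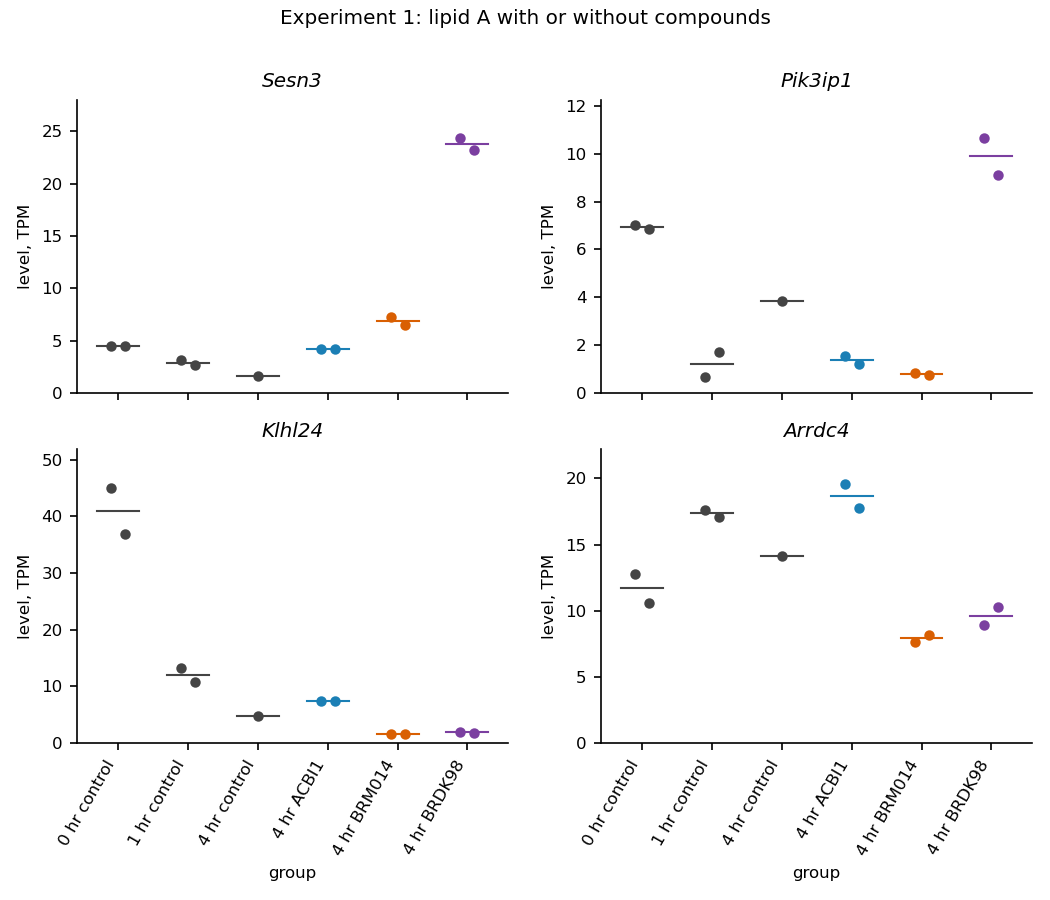
TPM per library of Sesn3, Pik3ip1, Klhl24 and Arrdc4 in experiment 1: controls before and 1 and 4 hr after lipid A, and the 3 compounds after 4 hr; points are libraries, short lines are group means, and the 4 hr control is 1 library. Sesn3 and Pik3ip1 are highest with BRDK98 among the 4 hr groups, and Klhl24 is highest with ACBI1.

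Among the alpha-arrestins at 4 hr, Txnip was at 71.9 TPM in the control, 51.0 and 49.9 with ACBI1, 22.2 and 20.0 with BRM014 and 59.7 and 61.5 with BRDK98. It fell with BRM014 (-1.72, SE 0.13, adjusted p = 3.29e-06) and with ACBI1 (-0.50, SE 0.13, adjusted p = 0.0113). The difference with BRDK98 was -0.24 on TPM as deposited (adjusted p = 0.142) and -0.88 after scaling (adjusted p = 0.000127). Arrdc4 fell from 14.1 TPM to 7.63 and 8.17 with BRM014 (-0.76, SE 0.14, adjusted p = 0.00095) and to 8.95 and 10.3 with BRDK98 (-0.51, SE 0.14, adjusted p = 0.0105; 0.062 without BRDK98 replicate 1). With ACBI1 its libraries, at 19.6 and 17.8 TPM, lay above the control.

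The members that were nearly silent in the 4 hr control passed the filter through their resting libraries, so their calls at this time rest on few reads. Arrdc3 was at 0.264 TPM (6 reads) in that control and at 1.78 and 2.42 with BRM014, with which it rose by 1.29 (SE 0.23, adjusted p = 0.000741). Bmf had 2 reads in the control, 0.588 and 0.628 TPM with ACBI1 and 1.51 and 1.40 with BRM014, and its fitted differences passed the threshold with both (adjusted p = 0.0162, or 0.0544 without ACBI1 replicate 2, and 0.000142). These calls rest on 2 reads in the 1 control library, with Bmf under 1 TPM with ACBI1, and are read no further. With BRDK98 it had 1 and 0 reads, and no fold is given for values under 3 reads. Sik1 fell with BRM014 from 1.20 TPM to 0.338 and 0.309 (-0.73, SE 0.18, adjusted p = 0.00444). Sesn1, at 1.38 TPM in the control and between 1.04 and 2.23 in the 6 treated libraries, was called with none of the compounds.

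In all, 8 of 9 genes were called with BRM014 at 4 hr (42.8% of all genes), 4 with ACBI1 (33.4%) and 3 with BRDK98 (34.5%). With the filter applied to the libraries of each comparison alone, an alternative chosen after seeing the data, 6 of 7 genes were called with BRM014 (46.9% of all genes), without Sik1 and Pik3ip1, 3 of 6 with ACBI1 (39.8%) and 3 of 6 with BRDK98 (38.3%), the last 2 without Arrdc3, Bmf and Sik1. The median of the 9 genes was -0.73 with BRM014, 0.36 with ACBI1 and -0.09 with BRDK98, against 0.43, 0.25 and 0.46 over all genes. Median-ratio scaling takes out that shift of all genes, and the medians of the 9 genes were then -1.07, 0.04 and -0.14. Marker sums moved with the compounds at 4 hr. Stromal markers were at 14.2 TPM in the control, 3.66 to 4.34 with ACBI1, 0.33 to 0.517 with BRM014 and 8.01 to 9.18 with BRDK98. With BRM014 dendritic cell markers were at 19.8 to 21.6 TPM against 7.11, granulocyte markers at 11.4 to 13.4 against 3.71 and macrophage markers at 26318 to 27675 against 18745, and the part of these shifts in the results was not tested.

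The compounds were also compared directly, as 3 pairs at each of 3 times or 9 pairs in all, with p-values adjusted over all genes and, for each member, also over the 3 pairs of a time; the latter are given next. At 4 hr Sesn3 was 2.25 higher with BRDK98 than with ACBI1 (p adjusted over the pairs = 8.79e-09, limma) and 1.65 higher than with BRM014 (8.48e-08). Pik3ip1 was 2.20 and 2.60 higher with BRDK98 than with ACBI1 and BRM014 (1.42e-06 and 5.79e-07). Klhl24 set ACBI1 apart: it was 1.70 lower with BRM014 (-1.70, 6.93e-07) and 1.56 lower with BRDK98 (-1.56, 7.85e-07), while BRDK98 and BRM014 differed by 0.14 with an interval of -0.17 to 0.45. Txnip set BRM014 apart, at -1.22 from ACBI1 (8.84e-07) and 1.48 lower than with BRDK98 (2.88e-07).

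At 4 hr 6 of the 9 genes differed between BRM014 and ACBI1 (30.4% of all genes), 5 between BRDK98 and ACBI1 (36.5%) and 7 between BRDK98 and BRM014 (45.2%). Sesn1 and Sik1 in the last pair (0.43 and 0.42, adjusted p over all genes = 0.0393 and 0.0468) were lost when libraries were left out. Sik1 and Sesn1 did not pass the threshold between BRM014 and ACBI1, with intervals of -0.59 to 0.06 and -0.47 to 0.17. Arrdc4 did not pass between BRDK98 and BRM014 (0.25, interval -0.01 to 0.51). With the filter on the libraries of each pair alone, chosen after seeing the data, the counts changed. In the order above they were 6 of 8 genes (34.5% of all genes), 4 of 6 (40.4%) and 6 of 8 (49.8%). Sik1 was left out each time, and Arrdc3 and Bmf also between BRDK98 and ACBI1.

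At 20 min Sik1 alone passed on both scalings between any pair. It was 1.08 lower with BRDK98 than with ACBI1 (-1.08, SE 0.13, p adjusted over the pairs = 3.12e-06, with 1.58% of all genes called) and 0.78 lower than with BRM014 (-0.78, SE 0.13, 5.1e-05, 0.944% of all genes). Without BRM014 replicate 1 or 2 or BRDK98 replicate 1 the latter call was lost (adjusted p over all genes 0.0624, 0.0902 and 0.11). Between BRM014 and ACBI1 limma called 0 of 9 genes (0.346% of all genes), and Sik1 alone had an unadjusted p under 0.05. Arrdc3 was lower with BRDK98 than with BRM014 after scaling (-0.66, limma adjusted p = 0.0273) but did not pass on TPM as deposited. In limma voom on the recovered reads that difference was -0.68 (adjusted p = 0.00779). At 60 min Arrdc3 was higher with BRDK98 than with ACBI1 (1.38, 2.03e-06) and BRM014 (1.04, 2.25e-05). Sik1 was lowest with ACBI1, by 0.85 against BRM014 (4.47e-05) and 0.69 against BRDK98 (0.000178). For Txnip, BRDK98 and BRM014 differed by 0.09 with an interval of -0.19 to 0.38, and by 0.38 without BRM014 replicate 2 (adjusted p = 0.00113). The counts were 3 of 9 for BRM014 against ACBI1 (47.8% of all genes), 3 for BRDK98 against ACBI1 (35%) and 4 for BRDK98 against BRM014 (26.8%).

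In Arid1a-/- cells 6 of the 9 genes were lower than in Arid1a f/f cells at 1 hr of LPS, and none was called higher; of all genes 16.8% were called lower and 18.7% higher. Klhl24 was at 20.8 and 21.1 TPM in the controls and at 3.75 and 6.51 in the knockout (-1.88, SE 0.19, adjusted p = 4.48e-05). Pik3ip1 fell from 2.10 and 3.03 TPM to 0.513 and 0.356 (-1.30, SE 0.17, adjusted p = 0.000243). Sesn1 fell from 103 and 106 TPM to 40.3 and 46.9 (-1.24, SE 0.10, adjusted p = 1.58e-05). In each of these 3 genes both knockout libraries lay below both controls, as they did for Arrdc4, Bmf, Sesn3, Txnip and Sik1. For Arrdc3 both lay above. The share of all genes with such a pattern was not determined, so nothing is read from it.

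Arrdc4 also fell, from 8.51 and 7.75 TPM to 4.56 and 4.38 (-0.74, SE 0.16, adjusted p = 0.00542). Bmf was under 1 TPM in all 4 libraries, at 0.924 and 0.982 in the controls and 0.257 and 0.306 in the knockout, and was called lower (-0.61, SE 0.12, adjusted p = 0.00302). It passed the filter on low values only through the resting libraries. Of the 8 genes that pass on the 1 hr libraries alone, an alternative chosen after seeing the data, 5 were called, all lower, where 37.2% of all genes were called either way. Sesn3 was at 4.80 and 4.52 TPM in the controls and at 1.01 and 3.34 in the knockout. Its call (-0.94, SE 0.29, adjusted p = 0.0318) was lost without either control library (adjusted p = 0.129 and 0.109). Txnip, at 41.6 and 42.5 TPM against 37.5 and 40.5, was not called (-0.11, interval -0.29 to 0.08), nor were Arrdc3 (0.38, adjusted p = 0.0815, or 0.0156 without knockout replicate 1) and Sik1 (-0.35, adjusted p = 0.0847). The median of the 9 genes was -0.74 against 0.03 over all genes.

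At 4 hr of LPS the profile was different: Txnip and Sesn3 rose and Klhl24 fell. Txnip was at 79.2 and 72.5 TPM in the controls and at 189 and 174 in the knockout (1.25, SE 0.08, adjusted p = 8.36e-06). Sesn3 was at 4.12 and 3.96 TPM against 10.2 and 8.74 (1.05, SE 0.29, adjusted p = 0.0262), a call lost without any 1 of the 4 libraries (adjusted p 0.0737 to 0.134). Klhl24 fell from 9.70 and 8.06 TPM to 3.42 and 3.71 (-1.11, SE 0.19, adjusted p = 0.00166). These 3 of 9 genes compare with 24.8% of all genes, and the medians were -0.07 and 0.05.

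**Figure D5:**
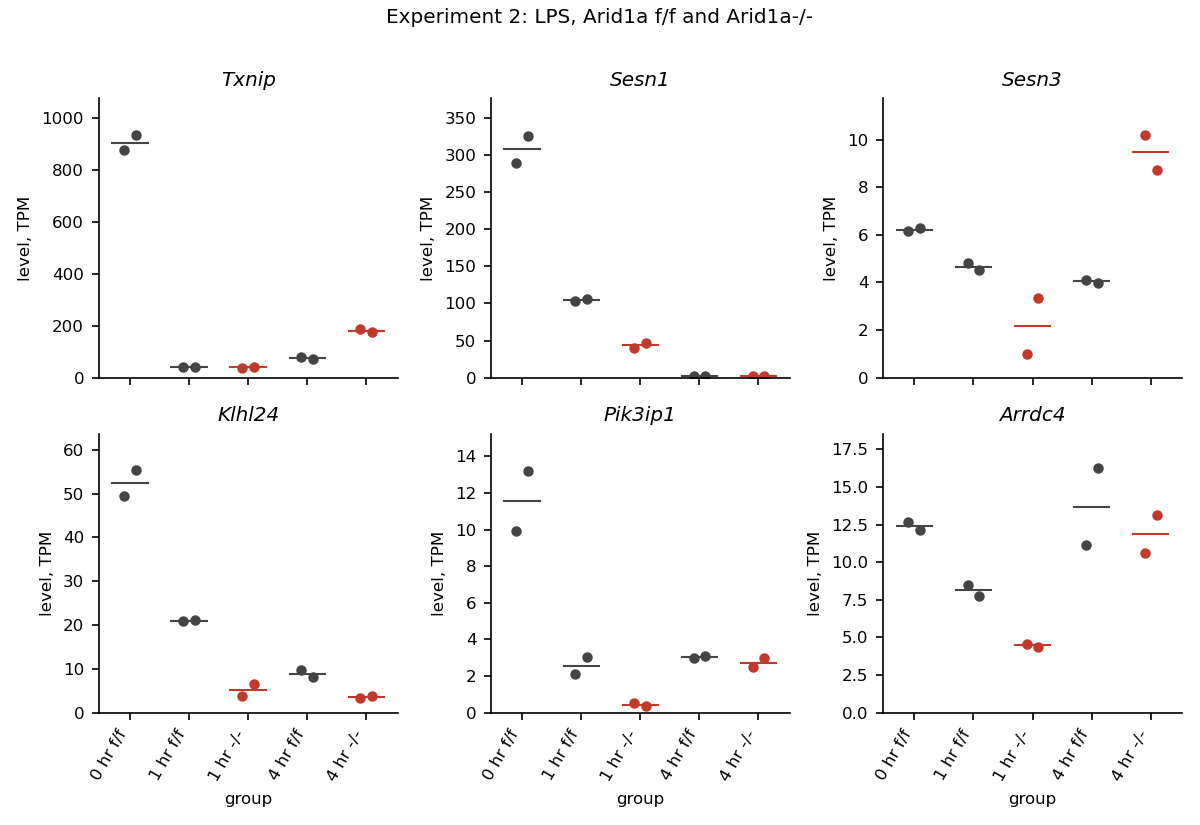
TPM per library of Txnip, Sesn1, Sesn3, Klhl24, Pik3ip1 and Arrdc4 in experiment 2, in Arid1a f/f cells at 0, 1 and 4 hr of LPS and in Arid1a-/- cells at 1 and 4 hr; points are libraries and short lines are group means. Txnip is higher in the knockout at 4 hr, and Klhl24 is lower at both times.

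The change of the Arid1a effect between 1 and 4 hr was itself past the threshold for Txnip (1.35, adjusted p = 0.000137), Sesn3 (1.99, adjusted p = 0.0128), Pik3ip1 (1.18, adjusted p = 0.00929) and Sesn1 (0.99, adjusted p = 0.00172), 4 of 9 genes where 15.9% of all genes were called. Sesn1 in the knockout at 4 hr, at 1.81 and 1.65 TPM, lay below the controls at 2.23 and 2.26. Arid1a itself was at 7.17 and 13.2 TPM in the knockout at 1 hr against 18.3 and 17.3 (adjusted p = 0.0165), and at 25.4 and 26.1 against 35.2 and 41.9 at 4 hr (adjusted p = 0.0838), so transcript remained under that label. Which part of the gene is deleted is not given in the sources used here. Stromal markers summed to 54.9 to 62.1 TPM in the knockout at 4 hr against 29.7 to 29.8, and to 5.66 to 8.40 against 2.22 to 2.47 at 1 hr. At 1 hr granulocyte markers were at 4.38 to 4.42 TPM against 2.49 to 2.73, dendritic cell markers at 51.3 to 55.1 against 65.4 to 66.2 and macrophage markers at 15141 to 15192 against 19324 to 19481; their part in these results was not tested.

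In Pbrm1-/- cells at 4 hr of lipid A limma called 0 of the 9 genes and 0.00905% of all genes, and limma voom on the recovered reads also called 0. Unadjusted p was under 0.05 for Txnip, Arrdc4 and Sesn3. Txnip was at 96.2 and 159.5 TPM in the Pbrm1 f/f libraries and at 88.2 and 77.3 in the knockout (-0.58, adjusted p = 0.468). Arrdc4 was at 20.9 and 27.0 TPM against 14.6 and 12.1 (-0.79, adjusted p = 0.468). Both knockout libraries lay below both controls for 7 of the 9 genes, all but Bmf and Klhl24, a pattern that 32.4% of all genes shared. Among the 7, Arrdc3 and Sesn1 passed the filter on low values only through the resting libraries. Arrdc3 was at 0.628 and 0.577 TPM in the controls and at 0.482 and 0.553 in the knockout. Nothing is read from this count.

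The Pbrm1 f/f controls at 4 hr stood well apart from each other. Sesn1 was at 0.926 and 5.84 TPM in the controls and 0.852 and 0.835 in the knockout, and Sik1 at 1.45 and 4.66 against 1.05 and 1.23. The interval of the Sesn1 difference was -2.63 to 0.67 and that of Sik1 -1.62 to 0.02. Without control replicate 1, 6 of the genes were called lower, Sesn1 by 1.89 (-1.89, adjusted p = 3.01e-05), and without control replicate 2 none was. Pbrm1 itself was at 4.54 and 5.03 TPM in the knockout against 15.6 and 14.7. Its difference (-1.48, limma adjusted p = 0.0265 on TPM as deposited) did not pass on both scalings, so it was not called either. An absence of calls in this comparison therefore does not show that a gene was unchanged. Granulocyte markers summed to 63.9 to 72.2 TPM in the knockout against 100.4 to 113.6 in the controls, and dendritic cell markers to 11.7 to 13.6 against 15.8 to 18.1; their part was not tested.

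The counts of list genes that follow stand beside these shares of all genes called: 33.4%, 42.8% and 34.5% with ACBI1, BRM014 and BRDK98 at 4 hr, 0.147%, 0.39% and 1.33% at 20 min, 25.2%, 30.2% and 11.6% at 60 min, and 35.5% and 24.8% in Arid1a-/- cells at 1 and 4 hr. Medians of log2 differences over all genes were, in the same order, 0.25, 0.43 and 0.46 at 4 hr, -0.14, 0.04 and 0.08 at 60 min, and 0.03 and 0.05 in Arid1a-/- cells. These and the list medians that follow are on TPM as deposited; median-ratio scaling takes out the shift of all genes and turns the sign of several list medians, so each is read only against the median of all genes. No list was tested as a set.

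Among 30 FOXO factors and other FOXO targets measured, BRDK98 at 4 hr raised 7 and lowered 13, BRM014 8 and 9, and ACBI1 4 and 8. S1pr1, a sphingosine-1-phosphate receptor of trafficking cells, rose from 2.61 TPM to 18.8 with ACBI1 (2.45) and 29.0 with BRM014 (3.06). At 20 min 1, 1 and 3 fell and 0 rose with ACBI1, BRM014 and BRDK98. The transcription factor Klf2 fell with ACBI1 (-0.61) and BRDK98 (-0.81) at that time. At 60 min the counts higher and lower were 7 and 8 with ACBI1, 8 and 10 with BRM014 and 6 and 5 with BRDK98, with Klf2 at 130.2 TPM with BRM014 against 26.4 (2.26). List medians with ACBI1, BRM014 and BRDK98 were -0.01, 0.23 and 0.11 at 4 hr and -0.22, -0.14 and 0.14 at 60 min.

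Of the 30 FOXO-related genes 16 fell and 2 rose at 1 hr in Arid1a-/- cells (median -0.41 against 0.03 over all genes), and at 4 hr 9 fell and 4 rose (median -0.21 against 0.05). Pink1, a kinase that marks damaged mitochondria, fell from 58.8 to 19.1 TPM at 1 hr (-1.57) and by -1.64 at 4 hr. Bcl2l11, the BH3-only protein BIM, which is also in the BCL2 list, fell at both times (-1.21 and -1.49). The autophagy kinase Ulk1 fell at 1 hr (-1.18). No gene of this list or of the lists that follow was called in Pbrm1-/- cells, where 0.00905% of all genes were called and Pbrm1 itself was not.

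The other alpha- and beta-arrestins and NEDD4-family ligases, 10 measured genes, were called in these numbers. Counts higher and lower at 4 hr were 0 and 0 with ACBI1, 3 and 0 with BRM014 and 2 and 1 with BRDK98, none passed at 20 min, and at 60 min they were 0 and 2, 2 and 2, and 1 and 0. Arrdc2, a further alpha-arrestin, rose from 4.88 to 52.3 TPM with BRM014 at 60 min (3.16) and by 0.42 with BRDK98. Loss of Arid1a lowered 2 at 1 hr, and raised 2 and lowered 1 at 4 hr. Medians were 0.33, 0.70 and 0.25 with ACBI1, BRM014 and BRDK98 at 4 hr, -0.29, -0.11 and 0.06 at 60 min, and -0.25 and -0.03 without Arid1a.

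Of 11 genes of the thioredoxin system and of MondoA, ChREBP and MLX, 3 rose and 1 fell with ACBI1 and with BRM014 at 4 hr, and 2 rose and 3 fell with BRDK98. Mlx, the partner of MondoA, rose with all 3 (1.19, 1.24 and 1.32 with ACBI1, BRM014 and BRDK98). Txnrd1, thioredoxin reductase, rose with ACBI1 (1.16) and BRM014 (1.82) and fell with BRDK98 (-0.63). None passed at 20 min, and at 60 min 1 rose and 3 fell with ACBI1, 2 and 3 with BRM014 and 1 and 1 with BRDK98. With Arid1a deleted 2 rose and 1 fell at 1 hr and 4 rose and 1 fell at 4 hr. The medians were 0.36, 0.27 and 0.17 at 4 hr and -0.17, 0.11 and 0.08 at 60 min for the compounds, and 0.27 and 0.21 for the knockout.

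Of the sestrin partners and mTORC1 regulators, 21 measured in experiment 1, 11 rose and 1 fell with ACBI1 at 4 hr, 10 and 2 with BRM014 and 9 and 1 with BRDK98. Sesn2, the third sestrin, rose with BRM014 at 4 hr (1.82) and at 60 min, from 7.25 to 34.3 TPM (2.06). In experiment 4, with 23 measured, 0 passed at 20 min with ACBI1 and BRM014 and 1 fell with BRDK98, and at 60 min 1 rose and 4 fell with ACBI1, 3 and 0 with BRM014 and 2 and 1 with BRDK98. In the Arid1a knockout 7 of 24 rose and 3 fell at 1 hr, with Deptor, an mTOR inhibitor, lower (-1.12), and 3 rose and 3 fell at 4 hr. The compounds gave medians of 0.66, 0.79 and 0.67 at 4 hr and -0.26, -0.03 and 0.12 at 60 min, and the knockout 0.10 and 0.11.

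Of 19 PI3K and AKT pathway genes, 4 rose and 13 fell with BRM014 at 4 hr (median -0.57), 5 and 5 with ACBI1 (-0.11) and 2 and 5 with BRDK98 (0.07). Pik3cd, the leukocyte PI3K catalytic subunit, fell with all 3 at 4 hr (-1.51 with ACBI1, -4.02 with BRM014 and -1.21 with BRDK98). Of 18 genes in experiment 4 none passed at 20 min. At 60 min 5 rose and 4 fell with ACBI1, 0 and 8 with BRM014, among them the regulatory subunit Pik3r5 (-1.46), and 0 and 3 with BRDK98. Medians at 60 min were -0.12, -0.35 and -0.01. The Arid1a knockout raised 2 and lowered 7 at 1 hr (median -0.24) and raised 4 and lowered 5 at 4 hr (-0.07).

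Among 14 genes of the SIK, CRTC, CREB and class IIa HDAC group, 2 rose and 3 fell with ACBI1 at 4 hr, 7 and 3 with BRM014 and 2 and 2 with BRDK98. Hdac9, a class IIa deacetylase, fell with all 3 (-2.76, -3.25 and -1.95). Nr4a1, an early CREB target, fell at 20 min with ACBI1 (-0.59), BRM014 (-0.61) and BRDK98 (-2.03), the one gene of the list to pass with each, and rose with BRDK98 at 60 min (1.05). At 60 min 0 rose and 2 fell with ACBI1, 1 and 5 with BRM014 and 3 and 1 with BRDK98. In Arid1a-/- cells 2 rose and 4 fell at 1 hr and 1 and 2 at 4 hr, with Crem higher at 4 hr (1.01). The list's medians were 0.15, 0.79 and 0.02 at 4 hr and -0.004, -0.19 and 0.20 at 60 min for the compounds, and -0.12 and -0.08 for the knockout.

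Of the other BCL2 family genes, 1 of 13 rose and 5 fell with ACBI1 at 4 hr, 1 and 1 with BRM014 and 1 and 4 with BRDK98. The survival factor Mcl1 fell with BRDK98 at 4 hr (-1.59) and with BRM014 at 60 min (-1.41), and Bcl2l11 fell with BRDK98 at 60 min (-2.18). Of 12 genes in experiment 4, 0, 1 and 1 fell at 20 min with ACBI1, BRM014 and BRDK98, and at 60 min 3 rose and 1 fell, 2 and 6, and 1 and 2. In Arid1a-/- cells 6 of 13 rose and 4 fell at 1 hr and 0 rose and 5 fell at 4 hr. The medians were 0.06, 0.43 and 0.13 at 4 hr, -0.06, -0.27 and 0.02 at 60 min, and 0.05 and -0.07 for the knockout.

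Of 6 reference genes that TLR4 induces, 3 rose and 2 fell at 4 hr with ACBI1, 2 and 3 with BRM014 and 1 and 2 with BRDK98. Counts at 20 min were 2 and 0, 0 and 4, and 0 and 4, at 60 min 3 and 1, 1 and 5, and 0 and 5, and in Arid1a-/- cells 0 and 2 at 1 hr and 2 and 1 at 4 hr. Medians were 0.75, 0.23 and 0.12 at 4 hr, 0.21, -1.48 and -2.90 at 60 min, and -0.03 and 0.66 for the knockout.

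Across the 23 group means, each expressed as the difference from the mean over all groups of its experiment, the members did not share 1 pattern. The correlation was highest between Arrdc3 and Bmf (r = 0.95) and was 0.90 between Arrdc3 and Sesn1 and 0.87 between Sesn1 and Klhl24. Arrdc4 had r of -0.20 to 0.22 with the other members and Sesn3 -0.15 to 0.48. These are descriptions over groups that share time points and controls. Of 10409 genes compared, the 9 members included, the other genes most like the mean of the 9 were Dnajc28, Brsk1, Zfp839, Trim65 and Golph3l (r = 0.98 each) and Fbxo32 (0.97). The gene most like each member was Gm15441 for Txnip (0.997), its antisense neighbour, Tfap4 for Arrdc3 (0.98), Rassf4 for Arrdc4 (0.78), Dnajc28 for Bmf (0.98) and Zbtb14 for Sik1 (0.93). For the rest it was Tmem86a for Sesn1 (0.99), Ncstn for Sesn3 (0.82), Tceanc2 for Pik3ip1 (0.93) and Pdgfc for Klhl24 (0.96).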

How the data were processed

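The deposited values are TPM per gene and library in 4 tables, made by the authors with STAR 2.5.3a on mm10 (GRCm38), HOMER and DESeq2, per the submitters' processing notes. Reads were 50-base single-end from a stranded mRNA kit, per the labels' protocols, and reads on both strands were counted, per the file headers, so a gene and its antisense partner cannot be told apart. The authors' deposited log2 fold changes and adjusted p-values are cited only where named. In experiment 4 they list another transcript of Arrdc3, Arrdc4 and Bmf than the TPM do. Of the TPM columns, 1 matched no sample, since it repeats the 4 hr control of experiment 1; 45 libraries of 46 labelled samples were used.

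Each experiment was fitted alone with limma 3.58.1 (trend and robust) in R 4.3.3 on log2(TPM + 1), over genes that reached 1 TPM in 2 or more libraries (11531, 11798, 11044 and 11549 genes; all 9 members passed in each), with all groups in 1 fit, which assumes that the lone control library varies like the others. Calls needed a Benjamini-Hochberg adjusted p under 0.05 and the same sign on both TPM as deposited and median-ratio scaled TPM. There were 25 contrasts tested: 12 against control, 9 pairs and 4 changes of effect with time. The fit was tested on simulated data.

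Members and lists were chosen with earlier results of these data known. The lists were FOXO-related genes, arrestins and NEDD4 ligases, the thioredoxin system, mTORC1 regulators, the PI3K and AKT pathway, the SIK and CREB group, the BCL2 family and stimulus reference genes; markers were of macrophages, granulocytes, dendritic cells, lymphocytes, erythroid and mast cells, and stroma. Named list genes are among the up to 3 called genes of each list and contrast with the largest difference and a group mean of at least 5 TPM. Alternatives were either scaling alone, a pseudocount of 0.1, no filter, no trend, voom on reads recovered from TPM and transcript length, a replicate block, each library left out and, chosen after seeing the data, the filter on the compared groups alone. Python 3.11.15 with pandas 2.3.3 and matplotlib 3.10.9 did the rest.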

Additional observations from a re-analysis of the deposited data

Results flagged for a closer look

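For 14 values the effect of a perturbation differed between times by limma's test of the difference itself. The ACBI1 effect at 60 min exceeded that at 20 min for Txnip (0.87, adjusted p = 0.00385) and Bmf (0.48, adjusted p = 0.0108), where 18.5% of all genes were called. The BRM014 effect rose between those times for Txnip (1.11, adjusted p = 0.000866) and Sik1 (0.71, adjusted p = 0.0168) and fell for Arrdc4 (-0.58, adjusted p = 0.0304) and Sesn1 (-0.43, adjusted p = 0.0234), where 13.3% of all genes were called. With BRDK98 it rose for Txnip (1.18, adjusted p = 0.000833), Arrdc3 (1.98, adjusted p = 4.03e-05) and Sik1 (1.33, adjusted p = 0.000241) and fell for Arrdc4 (-1.04, adjusted p = 0.000911).

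The Arid1a effect at 4 hr exceeded that at 1 hr for Txnip (1.35, adjusted p = 0.000137), Sesn1 (0.99, adjusted p = 0.00172), Sesn3 (1.99, adjusted p = 0.0128) and Pik3ip1 (1.18, adjusted p = 0.00929). Calls lost without 1 library were Bmf with ACBI1, Arrdc4, Sesn1 and Sik1 with BRM014, and Sesn3 and Pik3ip1 in Arid1a-/- cells.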

How the results depend on the processing

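Of the 2770 alternative values of single members, 2647 kept their side of the threshold, 67 lost and 56 gained the call. None that was called in the main or the alternative fit changed sign. Signs were not compared where neither fit gave a call. On TPM as deposited alone, 4 members passed with ACBI1 at 60 min (1 on both scalings, 0 with no filter) and 6 between BRDK98 and ACBI1 at 60 min (3 on both). On scaled TPM alone 5, and in voom 6, passed with BRDK98 at 4 hr (3), and 2 in each between BRDK98 and BRM014 at 20 min (1). With 1 library left out, counts ran from 2 to 5 for the change of the Arid1a effect (4; 2 without the 1 hr control replicate 2), 0 to 6 in Pbrm1-/- cells (0), 0 to 0 with ACBI1 at 20 min (1) and at 60 min (1), 1 to 2 with BRDK98 at 20 min (2), 1 to 5 and 1 to 2 for the changes of the BRM014 (4) and ACBI1 (2) effects, 0 to 1 between BRDK98 and BRM014 at 20 min (1), 2 to 2 in Arid1a-/- cells at 4 hr (3) and 3 to 6 between BRM014 and ACBI1 at 60 min (3; 6 without BRM014 replicate 2).

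With the filter applied to the compared groups alone, chosen after seeing the data, all 205 values of members that pass it kept their side of the threshold.

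Whether replicate numbers pair the samples is not settled. Same-numbered deviations correlated at over 0.1 in 1 of 10 pairs of groups in experiment 1, 1 of 10 in experiment 2, 2 of 3 in experiment 3 and 11 of 36 in experiment 4. The median r was 0.146 in experiment 3 and at most 0.022 in the other experiments. With a replicate block 24 of 25 counts were equal, and 79 instead of 80 calls passed; Sesn1 between BRDK98 and BRM014 at 4 hr was lost.

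Counts over all genes moved by more than 1.5 times on TPM as deposited alone with BRM014 at 4 hr (7459 from 4936), BRDK98 at 4 hr (7152 from 3974; 5983 on scaled TPM alone), ACBI1 at 60 min (4539 from 2915), BRDK98 against ACBI1 at 60 min (6618 from 4039) and in Pbrm1-/- cells (7 from 1; 2 in voom and with no filter, 0 with a pseudocount of 0.1, with the block, with the filter on the compared groups or without trend). Voom gave 28 with ACBI1 (17; 11 without trend) and 257 with BRDK98 (154) at 20 min. The cause of these changes was not tested. Bmf, Arrdc3, Sik1 and Sesn1 at 4 hr rest on few reads, so their differences depend most on the pseudocount.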
